A study of Mus musculus with 6 samples.

Results

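Sox genes encode transcription factors that bind DNA through a domain shared with Sry, the HMG box, which lies in the minor groove and bends the helix. The family is divided into subgroups by the sequence of this domain. The 9 genes described here, Sox4, Sox5, Sox6, Sox7, Sox9, Sox11, Sox12, Sox17 and Sox18, were chosen by gene symbol, and each was found once among the 23284 genes of the deposited table. They belong to subgroups SoxC (Sox4, Sox11, Sox12), SoxD (Sox5, Sox6), SoxE (Sox9) and SoxF (Sox7, Sox17, Sox18). In the embryonic heart SoxF factors are known from the endothelium and endocardium, Sox9 from the mesenchyme of the endocardial cushions that forms the valves, and Sox4 and Sox11 from the septation of the outflow tract. SoxD proteins lack an activation domain of their own and act with other factors, among them Sox9 in cartilage.

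RNA-seq was performed on heart ventricles of E9.5 C57BL/6 embryos, 3 wild type (WT) and 3 with the genotype Tbx5ua -/- (KD). Tbx5ua is the long non-coding RNA transcribed away from Tbx5, and in KD embryos a cassette of polyadenylation signals was placed into both of its alleles to stop the transcript short. All embryos were tetraploid chimeras, in which the injected ES cells form the embryo proper while the tetraploid host contributes to extraembryonic tissue. The ES cells edited for KD were C57BL/6 J-derived and clonal, and the sources used here do not say from which of the lines the sequenced embryos came. The question of the comparison was which genes differ in the ventricle when Tbx5ua is knocked down. Tbx5ua itself was not analysed here, so the knockdown was not checked in these libraries.

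For each gene the authors' Cuffdiff table gives 1 FPKM value (fragments per length of transcript, relative to all mapped fragments) for the WT embryos and 1 for the KD embryos. Values of single embryos are not in this table, so neither an SD between embryos nor the overlap of the groups can be given from it. No test was made, the authors' own test columns were not used, and every difference below is between 2 group values. As FPKM is a measure per length, levels of different genes can be set side by side. The depth of the libraries is unknown. Over the whole table the values added up to 859452 FPKM for WT and 877889 FPKM for KD. Of the 9 genes, 8 reached at least 1 FPKM in either group, as did 11606 genes of the table. The tissue label was checked with marker genes. All 7 cardiomyocyte markers were above 1 FPKM, with a summed level of 9182 FPKM in WT against 8957 FPKM in KD. Of 5 neural tube markers Sox2, Neurog1 and Neurod1 were listed at 0 in both groups, Pax6 had 0.171 and 0.030 FPKM, and Nes, an intermediate filament gene, had 7.12 and 6.38 FPKM, which was most of the summed level of 7.29 FPKM in WT against 6.41 FPKM in KD.

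The coding sequence of the HMG box shows how the 9 genes are related. Its first 15 codons are printed here because they span a motif found in all 9 genes, read 5′ to 3′ on the coding strand from GENCODE transcripts of build GRCm38. Capitals mark bases that differ from Sox9.

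Sox9: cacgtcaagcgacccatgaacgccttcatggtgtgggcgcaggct
Sox4: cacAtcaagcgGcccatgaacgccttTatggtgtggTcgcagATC
Sox11: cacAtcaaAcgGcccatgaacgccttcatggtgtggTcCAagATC
Sox12: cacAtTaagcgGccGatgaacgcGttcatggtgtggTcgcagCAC
Sox5: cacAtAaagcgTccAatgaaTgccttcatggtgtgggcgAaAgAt
Sox6: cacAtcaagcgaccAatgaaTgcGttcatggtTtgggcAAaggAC
Sox7: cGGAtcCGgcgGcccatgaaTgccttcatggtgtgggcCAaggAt
Sox17: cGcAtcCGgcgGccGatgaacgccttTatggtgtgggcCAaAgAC
Sox18: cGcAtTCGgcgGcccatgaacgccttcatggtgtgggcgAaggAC

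The Sox9 stretch lies in an exon on the plus strand of chromosome 11 (chr11:112782894-112782938), and that of Sox7 on the plus strand (chr14:63943885-63943929). Those of the others lie on the minus strand, Sox4 at chr13:28952806-28952850, Sox11 at chr12:27342223-27342267, Sox12 at chr2:152397540-152397584, Sox5 at chr6:143841238-143841282, Sox6 at chr7:115489727-115489771, Sox17 at chr1:4493164-4493208 and Sox18 at chr2:181671246-181671290. Of the 45 positions 25 hold the same base in all 9 genes. The number of bases that differ from Sox9 was 7 in Sox4, the lowest, and 12 in Sox17, the highest. Over the whole box of 237 bases, Sox9 shared 75.9% of bases with Sox17, 74.3% with Sox7 and 73.4% with Sox18, compared with 70.9% to 72.2% with the SoxC genes and 56.5% to 59.9% with the SoxD genes. The 7 pairs within a subgroup shared 77.2% to 89.0% of bases, and the 29 pairs between subgroups 53.6% to 75.9%. The box is uninterrupted in the 3 SoxC genes and split by 1 intron in each of the other 6.

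**Figure D1:**
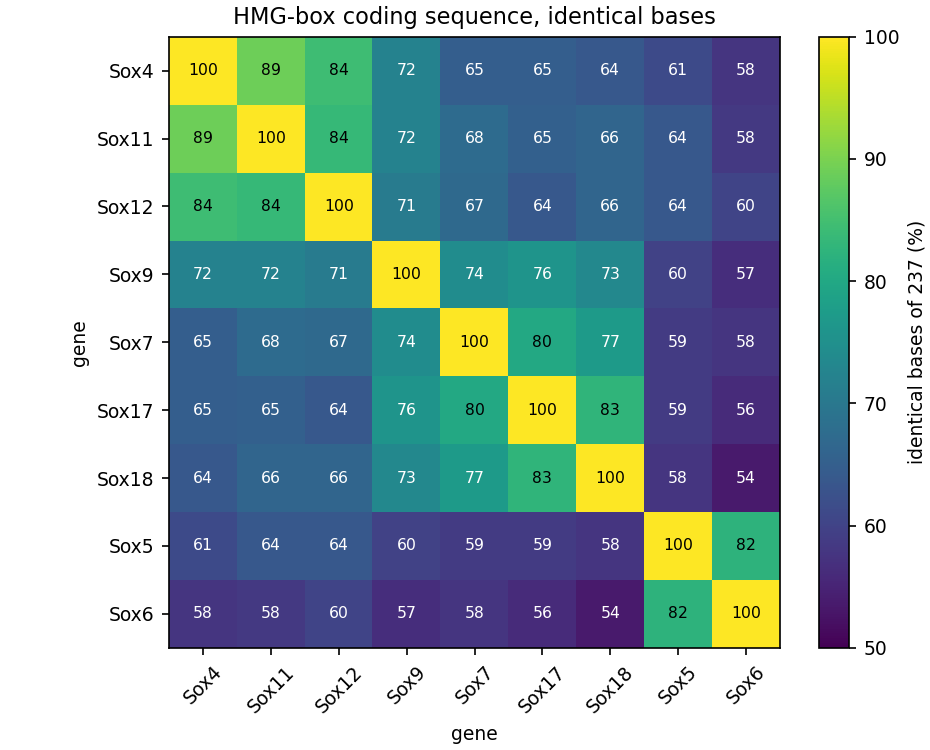
Percentage of identical bases over the 237 coding bases of the HMG box for each pair of the 9 Sox genes. Pairs within SoxC, SoxD and SoxF reached at least 77.2%, and Sox9 was closest to Sox17 with 75.9%.

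Sox9 was the only one of the 9 genes past a 1.5-fold difference between the groups. It had 8.95 FPKM in WT against 16.02 FPKM in KD, a ratio of 1.79 and a log2 ratio of 0.84. Sox9 directs cartilage formation and is needed for the expansion of cushion mesenchyme. The gene lies on chromosome 11, from 112782210 to 112787757 in the table (mm10), on the plus strand, with 3 exons and no annotated gene overlapping it on the opposite strand. The other 8 genes lay within 0.25 of 0 on the log2 scale. Among the genes with at least 1 FPKM in either group, 4.84% were past 1.5-fold higher and 3.33% past 1.5-fold lower in KD, and among those with at least 5 FPKM in either group, 2.09% were higher and 1.48% lower. Of the 8 Sox genes with at least 1 FPKM in either group, 1 was past 1.5-fold higher and 0 were lower. The same held for the 5 with at least 5 FPKM in either group. In so small a family 1 gene is already a larger share than these, so the count is not read as a result about the family. The median log2 ratio of the 9 genes was -0.0060, compared with 0.0049 over the 11606 genes.

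Ratios scatter more among genes with low FPKM, so each gene was also placed among genes of like level, those with a mean FPKM within 2-fold of its own. For Sox9 these were 3758 genes, of which 25 had a higher log2 ratio, and 90% of them lay between -0.36 and 0.40 (5th and 95th percentile). The other 8 Sox genes lay inside the same percentiles of their own neighbours in level. This spread is over genes and does not stand in for the spread between embryos.

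**Figure D2:**
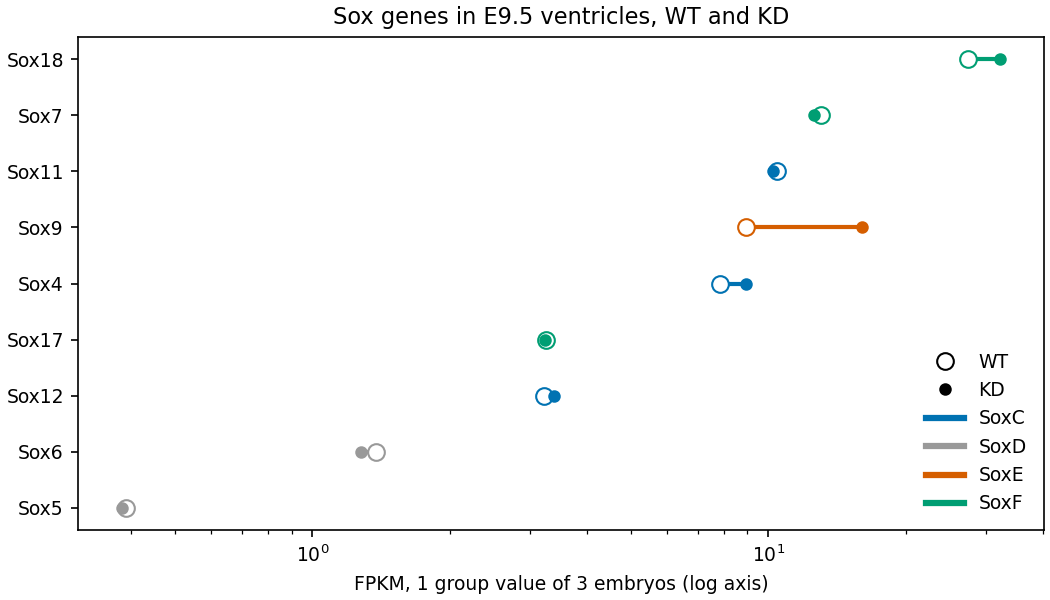
FPKM of the 9 Sox genes on a log axis, with the WT group value as an open circle and the KD group value as a filled circle, colored by subgroup. Sox9 has the longest line, from 8.95 to 16.02 FPKM, and the circles of Sox17, Sox11, Sox5 and Sox7 nearly coincide.

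**Figure D3:**
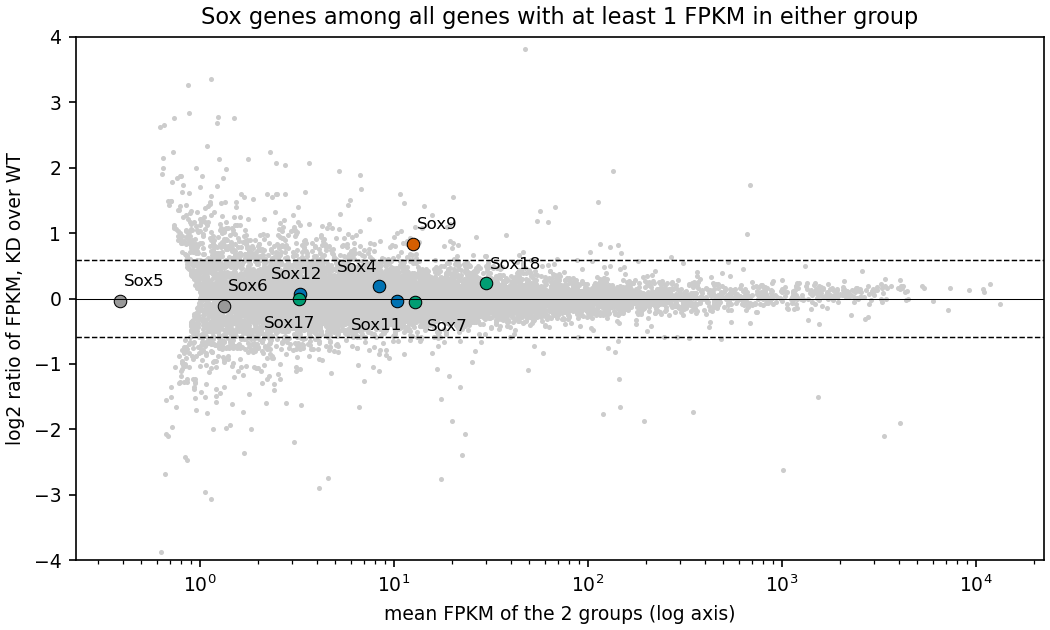
Log2 ratio of KD over WT against the mean FPKM of both groups (log axis) for genes with at least 1 FPKM in either group and above 0 in both (grey) and the 9 Sox genes (colored by subgroup as in the plot of levels). Dashed lines mark 1.5-fold, 6 genes lie beyond the axis, and Sox9 is the only one of the 9 Sox genes outside the dashed lines.

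The SoxF genes, which act in endothelial and endocardial cells, were the most abundant subgroup, with a sum of 43.7 FPKM in WT against 48.0 FPKM in KD. Sox18, a regulator of vascular and lymphatic endothelium, was the highest of the 9 genes, with 27.4 FPKM in WT against 32.2 FPKM in KD (ratio 1.18, log2 ratio 0.23). Its ratio was above that of 90.5% of 2852 genes of like level. Sox7 had 13.1 FPKM in WT against 12.6 FPKM in KD (log2 ratio -0.05). Sox17, which is also known for its part in endoderm formation, had 3.26 FPKM in WT against 3.24 FPKM in KD (log2 ratio -0.0060). The log2 ratios of the subgroup thus ranged from -0.05 to 0.23. In GENCODE a long non-coding gene, Gm37587, overlaps exons of Sox17 on the opposite strand. The library protocol does not keep the strand of the RNA, so reads from the pair could not be told apart.

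In subgroup SoxC, whose genes are expressed in many embryonic progenitor cells, the sum was 21.5 FPKM in WT against 22.5 FPKM in KD. Sox11 had 10.5 FPKM in WT against 10.2 FPKM in KD (log2 ratio -0.03). Sox4 had 7.83 FPKM in WT against 8.92 FPKM in KD (log2 ratio 0.19), and its exons overlap Gm26735 on the opposite strand in GENCODE. Sox12, the remaining SoxC gene, had 3.22 FPKM in WT against 3.38 FPKM in KD (log2 ratio 0.07). All SoxC differences were smaller than 1.2 FPKM, the largest being 1.09 FPKM for Sox4.

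The SoxD genes had the lowest levels. Sox6, which in the embryo silences an embryonic globin gene and slow muscle genes, had 1.38 FPKM in WT against 1.28 FPKM in KD (log2 ratio -0.11). Sox5 was listed with 0.391 FPKM in WT against 0.383 FPKM in KD (log2 ratio -0.03), and was the only gene of the 9 under 1 FPKM in both groups. Its exons overlap the non-coding gene Sox5os1 on the opposite strand. For genes of like level the 5th and 95th percentiles of the log2 ratio were -0.79 and 0.96 for Sox6 and -1.55 and 1.82 for Sox5, so a 1.5-fold difference would lie inside the usual scatter there. The gene model of Sox5 in the table ends at 144209568 on chromosome 6, whereas its longest GENCODE transcripts begin at 144781977, so the upstream exons of these transcripts lie outside the model.

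The order of the levels differed between the groups mainly by the place of Sox9. In WT the order from high to low was Sox18, Sox7, Sox11, Sox9, Sox4, Sox17, Sox12, Sox6 and Sox5. In KD Sox9 took the second place in front of Sox7 and Sox11, and Sox12 and Sox17 traded places at nearly equal levels, with a ratio between them of 1.01 in WT and 1.04 in KD. In WT the steps between Sox7, Sox11, Sox9 and Sox4 were each between 1.14-fold and 1.249-fold, and without a spread between embryos these neighbours cannot be told apart. The steps from Sox18 to the next gene were larger, 2.10-fold in WT and 2.01-fold in KD. Sox9 made up 11.8% of the summed FPKM of the 9 genes in WT and 18.2% in KD. The sum itself was 75.9 FPKM in WT against 88.2 FPKM in KD, and 67.0 FPKM and 72.2 FPKM without Sox9.

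**Figure D4:**
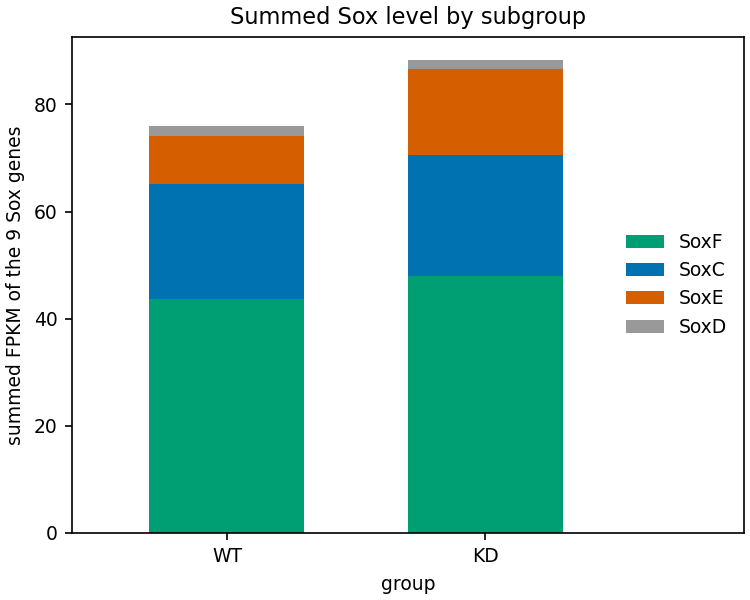
Summed FPKM of the 9 Sox genes in WT and KD, stacked by subgroup from 0. The SoxE part, which is Sox9 alone, is 8.95 FPKM in WT and 16.02 FPKM in KD, while SoxF, SoxC and SoxD differ by 4.31, 1.01 and -0.11 FPKM.

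The other Sox genes were at low levels. Of 10 further family members in the table, Sox1, Sox2, Sox15 and Sox21 were listed at 0 in both groups, and 2 reached 1 FPKM in either group. These were Sox13, a SoxD gene with 1.5 FPKM in WT against 1.57 FPKM in KD, and Sox3, a SoxB1 gene known from the nervous system. Sox3 had 0.853 FPKM in WT against 2.51 FPKM in KD (log2 ratio 1.55), and reached 1 FPKM only in KD, where it was high. It was the 1 of these 2 genes past 1.5-fold higher, and 0 were lower (4.84% and 3.33% over all such genes). The other SoxE genes, Sox8 and Sox10, which often act together with Sox9 in the neural crest, were below 0.11 FPKM in both groups. All of these were picked for mention after their values were seen. Genes outside the family that also carry an HMG box, such as those for the Wnt effectors Lef1 and Tcf7l2 and for the chromatin proteins of the Hmgb type, were 19 in number, of which 18 had at least 1 FPKM in either group, and 0 of them were past 1.5-fold (4.84% higher and 3.33% lower over all such genes), with a median log2 ratio of 0.11, compared with 0.0049. The most abundant were Hmgb1, with 410 FPKM in WT against 436 FPKM in KD, and Hmgb2, with 318 FPKM in WT against 325 FPKM in KD.

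Because the study concerns long non-coding RNAs that share a promoter with a transcription factor gene, such partners were sought for the 9 genes. In GENCODE, transcripts starting on the opposite strand within 3000 bp of a start site were found for Sox6 (Gm45025 and Sox6os), Sox9 (BC006965, 248 bp away) and Sox17 (Gm37587). Of these BC006965 is listed in the table, with 0.016 FPKM in WT against 0.0054 FPKM in KD, near 0 in both groups. Its model there ends at 112711356 on chromosome 11, 70854 bp before Sox9, so it does not include the GENCODE start next to Sox9. Of 8 listed non-coding neighbours of Sox genes 7 were in the table, and 2 of these had at least 1 FPKM in either group. Of these 2, 1 was past 1.5-fold higher and 0 were lower (4.84% and 3.33% over all such genes). The higher one, 2610035D17Rik, which begins 256149 bp after the end of Sox9 in the table, had 1.66 FPKM in WT against 2.53 FPKM in KD (log2 ratio 0.60). Its difference was under 1.5-fold with 0.1 or 1 FPKM added to both groups (1.49-fold and 1.32-fold). The same held with both groups rescaled to the same sum (1.488-fold). The other, 2810468N07Rik, which the paper pairs with Sox8, had 4.38 FPKM in WT against 4.21 FPKM in KD (log2 ratio -0.06).

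Genes linked to the subgroups were counted in lists. The lists were chosen with earlier results of these data known, so a count from them is a description and not independent support. Each count below stands beside the 4.84% of genes with at least 1 FPKM in either group that were past 1.5-fold higher and the 3.33% that were lower. Of 32 endocardial and endothelial genes linked to SoxF factors, 30 had at least 1 FPKM in either group. Of these, 3 were past 1.5-fold higher and 0 lower in KD, with a median log2 ratio of 0.12, compared with 0.0049 over all 11606 such genes. The 3 genes were Cldn5, a tight junction gene (3.07 FPKM in WT against 7.51 FPKM in KD), Hey1, a Notch target (13.3 and 23.1 FPKM), and Gja5, the gene of connexin 40 (7.02 and 12.1 FPKM). In bulk RNA the cell types from which these values came cannot be told. Of 14 cartilage-type genes known to be activated by Sox9, 4 had at least 1 FPKM in either group. All 4 had a lower value in KD, unlike Sox9, with 2 of them past 1.5-fold (median log2 ratio -0.45). Col2a1, the collagen gene that Sox9 is best known to activate, had 47.6 FPKM in WT against 31.5 FPKM in KD (log2 ratio -0.60). It lay next to the limit and was 1.495-fold lower, under 1.5-fold, with 1 FPKM added to both groups, and 1.496-fold lower with each group divided by its upper quartile. Cytl1 had 3.29 FPKM in WT against 1.09 FPKM in KD (log2 ratio -1.60). Hapln1, a link protein of the hyaluronan matrix, had 86.0 FPKM in WT against 79.3 FPKM in KD, and Matn3 had 1.67 and 1.34 FPKM. These last 2 did not pass 1.5-fold and were named after their values were seen.

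Of 24 genes of cushion and valve mesenchyme, 22 had at least 1 FPKM in either group. Among these 4 were past 1.5-fold higher and 2 lower in KD (4.84% and 3.33% over all such genes), with a median log2 ratio of 0.0048. The mesenchymal transcription factor genes Twist1 (1.98 FPKM in WT against 3.23 FPKM in KD) and Snai2 (1.45 and 2.52 FPKM) were higher in KD, as were Col1a1 (1.76 and 4.64 FPKM) and Pdgfra, a receptor gene (0.969 and 2.78 FPKM). Bmp4, a signalling ligand (6.52 and 2.96 FPKM), and Msx1, a target of BMP signalling (5.60 and 2.92 FPKM), were lower. With 1 FPKM added to both groups, Twist1 and Snai2 were under 1.5-fold (1.42-fold and 1.44-fold). Of the 14 expressed genes (at least 1 FPKM in either group, from a list of 17) of pathways known to act upstream of Sox genes, 1 was past 1.5-fold higher and 4 lower, with a median log2 ratio of 0.04. The higher one was the receptor gene Fgfr2 (1.43 FPKM in WT against 2.30 FPKM in KD). Besides Bmp4, the lower ones were the ligand gene Wnt2 (21.0 and 12.7 FPKM), the Wnt target Axin2 (1.11 and 0.489 FPKM) and the hedgehog receptor gene Ptch1 (1.49 and 0.91 FPKM). Fgfr2, Axin2 and Ptch1 were under 1.5-fold with 1 FPKM added to both groups (1.36-fold, 1.41-fold and 1.30-fold). Pdgfra, Axin2 and Ptch1 were under 1 FPKM in 1 group, so they entered the counts only through the group where they were high, and they were named after their values were seen.

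Of the 11 expressed of 19 second heart field and outflow genes, 0 were past 1.5-fold higher and 1 lower, Fgf8, with 2.45 FPKM in WT against 1.41 FPKM in KD. Of the 6 expressed of 7 genes known as SoxC targets, 1 was past 1.5-fold higher and 1 lower, with a median log2 ratio of -0.17. The higher one was Tubb3, a neuronal tubulin gene, with 12.2 FPKM in WT against 26.9 FPKM in KD, and the lower one Stmn2, a neuronal tubulin-binding gene, with 1.77 FPKM and 0.904 FPKM, which reached 1 FPKM only in WT and was named after its values were seen. The SoxC genes themselves differed by less than 1.2-fold. Of 11 globin and muscle genes linked to Sox6 or its partners, 1 was past 1.5-fold (median log2 ratio 0.09), Bcl11a, a repressor of embryonic globin genes, with 1.10 FPKM in WT against 3.33 FPKM in KD. Of the 11 genes, 6 had a log2 ratio above 0 and 5 below 0. The embryonic globin gene Hbb-y had 4138 FPKM in WT against 4453 FPKM in KD, and the slow myosin gene Myh7 470 FPKM and 500.4 FPKM. The globin genes Hbb-bh1 (2882 and 2725 FPKM) and Hba-x (4401 and 4318 FPKM) had slightly lower values in KD. So did Tnni1 (2924 and 2867 FPKM) and Tnnc1 (3330 and 3215 FPKM).

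**Figure D5:**
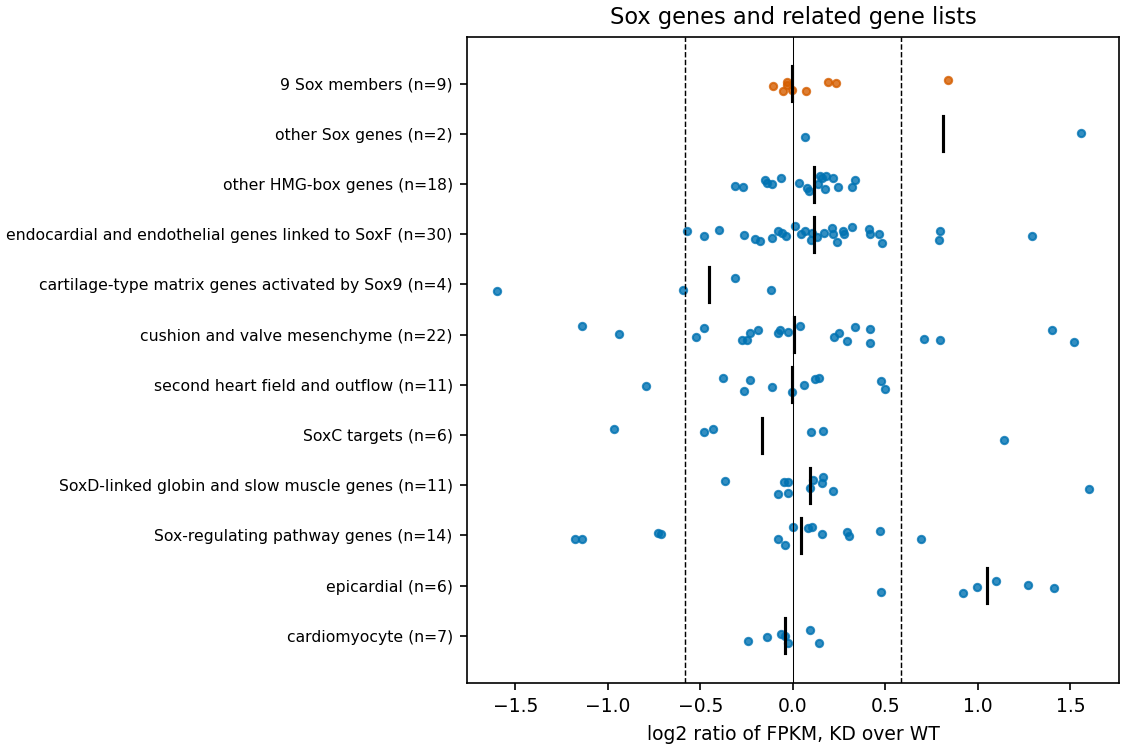
Log2 ratio of KD over WT for the 9 Sox genes (orange) and for genes of related lists with at least 1 FPKM in either group (blue), with medians as black bars and 1.5-fold as dashed lines. Of the 9 Sox genes, those other than Sox9 sit near 0, while Sox3, in the list of other Sox genes, lies at 1.55. The 4 cartilage-type genes lie below 0, and 5 of the 6 epicardial genes lie past 1.5-fold higher.

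Markers of other cell types of the ventricle were measured beside Sox9. These lists too were chosen with earlier results of these data known, so their counts are descriptions only. In bulk RNA more cells of a type and more RNA per cell cannot be told apart. Of 7 epicardial markers 6 had at least 1 FPKM in either group, and 5 of these were past 1.5-fold higher in KD (4.84% over all such genes, median log2 ratio 1.05), with a summed level of the list of 47.1 FPKM in WT against 96.0 FPKM in KD. Tcf21 had 11.9 FPKM in WT against 25.5 FPKM in KD, Tbx18 3.46 and 6.56 FPKM, Upk1b 9.17 and 22.1 FPKM, and Upk3b 7.80 and 20.7 FPKM. The remaining one was Aldh1a2, with 0.872 and 1.74 FPKM, which reached 1 FPKM only in KD, where it was high, and was named after its values were seen. The 10 markers of cushion and other mesenchyme, all of them also in the cushion and valve list, had a summed level of 56.8 FPKM in WT against 65.9 FPKM in KD, and 4 of the 9 at 1 FPKM or more in either group, Pdgfra among them, were past 1.5-fold higher and 1 lower. The 10 endocardial or endothelial markers, all of them also in the list linked to SoxF, summed to 287 FPKM in WT against 356 FPKM in KD. Their median log2 ratio was 0.16, with 1 of 10, again Cldn5, past 1.5-fold higher and 0 lower. Most of the difference between these sums came from Plvap, a gene of endothelial diaphragms, with 129 FPKM and 179 FPKM. Of the 6 neural crest markers Foxd3 was listed at 0 in both groups, and the list summed to 11.5 FPKM in WT against 12.4 FPKM in KD, most of it from Ets1. Of the 4 hepatic or foregut markers Alb was listed at 0, and the list summed to 0.487 FPKM in WT against 1.17 FPKM in KD. The part of these cell types in the difference of Sox9 was not tested.

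The genes nearest to Sox9 in their pair of group values, by distance on the log2 scale over the 2 values, were Egr1 (8.41 FPKM in WT against 15.9 FPKM in KD, distance 0.091), Gm7367 (9.36 and 15.0 FPKM, distance 0.116) and 2310022B05Rik (9.57 and 15.2 FPKM, distance 0.122). With only 2 values per gene this likeness is shared by any gene of similar level and ratio.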

How the data were processed

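Single-end RNA-seq libraries were prepared by the authors from 10 ng of total RNA per sample with the Smart-Seq2 protocol, in which PCR ran for 12 cycles before tagmentation and for 9 after it. TopHat, Bowtie2, Cuffdiff and the build mm10 are named in the submitters' processing notes, with no version. The authors deposited 1 table with FPKM values, 1 for the WT and 1 for the KD group (named KO there), made by Cuffdiff from 3 libraries each. Its fold changes, test statistics, p-values and q-values are the authors' own comparison and were not used. There were 0 columns of single embryos, so the precision of a value is unknown.

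The log2 ratio of KD over WT was computed with no pseudocount, for genes above 0 in both groups. A gene was counted as higher or lower past 1.5-fold, and a group at 0 against one above 0 counted by direction. No test was made. Named genes were the 9 members, genes of each list past 1.5-fold with at least 1 FPKM in both groups or, where none was, the 2 with the highest mean FPKM, and the 3 genes nearest to Sox9. Some genes outside this rule were named where a count was small, after their values were seen. The members and lists were chosen with earlier results of these data known.

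Gene starts in the table count from 0 and are given with 1 added: with it 9652 of 20862 genes matched a GENCODE release M21 (GRCm38) transcript start, without it 944. The HMG box was taken as 79 codons from 3 codons before the conserved stretch of 9 codons, found by translating the longest annotated coding sequence of each gene in the basic set. RefSeq promoters were listed for 5 of the 9 genes and were not used. Alternatives were pseudocounts of 0.1 and 1, other scalings, folds of 1.25 and 2, and other limits on FPKM. The functions were tested on simulated data. Python 3.11.15, NumPy 2.4.6, pandas 2.3.3 and Matplotlib 3.10.9 were used.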

Additional observations from a re-analysis of the deposited data

How the results depend on the processing

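The number of Sox genes past 1.5-fold was 1 with pseudocounts of 0.1 and 1, with the 3 other scalings, with the lower fold tried and among the 5 genes with at least 5 FPKM in either group, and 0 with a fold of 2, by construction. The median log2 ratio of the members was 0.19 over those 5 genes, because fewer genes enter, and moved by less than 0.1 otherwise. All 45 values of single members under the pseudocounts and scalings stayed within 0.1 of the value reported, the largest move being 0.065 for Sox9 with a pseudocount of 1. The 3 scalings shifted every gene alike, by -0.0049, -0.0306 and 0.0145 on log2, so under them no member could move by 0.1. Sox17, next to 0, changed sign when each group was divided by its upper quartile. The share of genes past 1.5-fold in either direction was 8.18% over the 11606 genes with at least 1 FPKM in either group, and 21.1% over genes above 0 in both groups and 3.57% over genes with at least 5 FPKM in either group. Of the 27 other listed genes past 1.5-fold, 11 were under it in at least 1 of the same 5 pseudocounts and scalings, applied to them after seeing the data. Among these were Col2a1, 2610035D17Rik and, with a pseudocount of 1 alone, Twist1, Snai2, Fgf8, Stmn2, Ptch1, Axin2, Fgfr2 and Aldh1a2, for which an added 1 FPKM is large beside the level. No paired analysis was possible because only 1 value per group was given, and for the same reason fits without each replicate were not run. The unknown depth and the missing spread between embryos limit every difference given.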
